A study of Homo sapiens with 18 samples.

Results

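The integrated stress response effectors described here are 10 genes, ATF4, ATF3, DDIT3, JDP2, PPP1R15A, TRIB3, CHAC1, ASNS, SESN2 and DDIT4, taken by gene symbol from the 62649 gene IDs of the count files. All 10 matched an ID, and all 10 passed the low-count filter in both lines. They were measured by mRNA sequencing in A549 (alveolar epithelial, derived from a carcinoma of the lung) and BEAS-2B (bronchial epithelial, immortalised), both labelled wild type. Cells on 24 mm inserts, seeded 24 h ahead at 400000 (A549) or 500000 (BEAS-2B), met clean air, complete wood smoke or wood smoke passed through a filter, at the air-liquid interface for 4 h, with 100 mL/min flow and 85% relative humidity in every group. Each of the 6 groups had 3 libraries, 18 in all, numbered 1 to 3. The series title asks about the gas phase, the fraction of smoke that passes a filter. Each tissue was represented by a single line, and the lines were grown in different media, so a difference between lines is not a difference between alveolar and bronchial cells in general.

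The integrated stress response starts when kinases that sense endoplasmic reticulum stress, amino acid or haem shortage, or double-stranded RNA phosphorylate the translation initiation factor eIF2. Phosphorylated eIF2 blocks its exchange factor eIF2B, general translation falls, and ATF4 mRNA is translated more through its upstream open reading frames. ATF4 switches on a set of transcription factors, metabolic enzymes and feedback genes, among them PPP1R15A, which brings protein phosphatase 1 to eIF2 and ends the response. Airway epithelial cells are known to use the pathway under oxidants, electrophiles and smoke. The libraries report mRNA levels, and neither eIF2 phosphorylation nor protein was measured.

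Promoter stretches of 4 genes are shown because the genes behind them moved most clearly in A549 cells, 3 upward and JDP2 downward, and because each holds a short motif of the kind that ATF4, CREB or AP-1 factors read. Sequences are from RefSeq (GRCh38.p14), on the gene's strand, without bases in annotated exons, and capitals mark the match. The search covered 250 bases before each RefSeq start on both strands for TGACGTCA (the CRE), TGATGNAA (the C/EBP-ATF element) and TGANTCA (the AP-1 element).
ATF3: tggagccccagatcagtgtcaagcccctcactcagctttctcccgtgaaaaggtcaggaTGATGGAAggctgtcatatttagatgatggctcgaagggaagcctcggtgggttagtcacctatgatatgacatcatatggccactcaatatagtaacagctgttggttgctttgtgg
DDIT3: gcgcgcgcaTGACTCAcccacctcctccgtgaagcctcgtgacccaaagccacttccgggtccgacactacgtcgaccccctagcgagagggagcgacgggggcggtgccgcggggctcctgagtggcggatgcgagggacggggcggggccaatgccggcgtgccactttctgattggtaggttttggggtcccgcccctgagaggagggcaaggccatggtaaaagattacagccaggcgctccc
JDP2: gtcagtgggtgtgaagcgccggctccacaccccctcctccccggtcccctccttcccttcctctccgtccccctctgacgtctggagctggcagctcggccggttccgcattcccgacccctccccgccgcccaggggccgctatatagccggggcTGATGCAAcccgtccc
PPP1R15A: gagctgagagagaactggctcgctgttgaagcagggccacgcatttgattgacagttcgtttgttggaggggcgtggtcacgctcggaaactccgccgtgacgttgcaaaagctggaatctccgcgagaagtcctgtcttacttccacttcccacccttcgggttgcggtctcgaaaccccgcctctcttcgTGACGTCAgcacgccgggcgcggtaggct
The ATF3 stretch, before the first of its RefSeq starts, lies at chr1:212565157-212565333 (plus strand), with TGATGGAA from 191 to 184 bases before that start. The window of its second start (chr1:212614768-212615017) held no match. The DDIT3 stretch, before the first of its listed RefSeq starts, lies at chr12:57520518-57520764 (minus strand), with TGACTCA from 241 to 235 bases before that start. The same letters lie from 238 to 232 bases before its second listed start. The JDP2 stretch, before the second of its RefSeq starts, lies at chr14:75427850-75428021 (plus strand), with TGATGCAA from 16 to 9 bases before that start. The PPP1R15A stretch lies at chr19:48872171-48872391 (plus strand), with TGACGTCA from 58 to 51 bases before the start.
CHAC1 and ASNS also held the C/EBP-ATF letters, TTGCATCA on the other strand of CHAC1 from 209 to 202 bases before the start and TGATGAAA in ASNS from 68 to 61 bases before the first of its listed RefSeq starts, both inside annotated exons. The window of the second listed ASNS start held no match. No match was found in the windows of ATF4, TRIB3, SESN2 and DDIT4. Of 35116 RefSeq promoters, 1.65% held TGACGTCA, 3.14% held TGATGNAA and 6.57% held TGANTCA. A match is a description of letters and not a measured binding site.

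Counts in genes ranged from about 14438400 to 21432100 per A549 library and from about 28532200 to 55032500 per BEAS-2B library. Values below are CPM, a gene's counts relative to the library total, scaled by TMM (a factor that evens out composition) within a line, with log2 fold changes ± SE from edgeR's quasi-likelihood test and p-values adjusted over all genes tested (Benjamini-Hochberg); an adjusted p under 0.05 was taken as passing. Both lines held the epithelial keratins KRT8, KRT18 and KRT7 at 788 CPM or more in every library, and BEAS-2B held the basal genes KRT5, KRT14, KRT17 and S100A2 at 14.2 CPM or more in every clean-air library, with another basal marker, TP63, at a mean of 7.65 CPM there and 18.2 CPM in A549 cells. In A549 cells the alveolar gene SFTPA1 was at 0 in all libraries, NKX2-1 and SFTPB were at 0 with clean air, and ABCA3 was at 42.8 CPM there. NAPSA and SFTPC had clean-air means of 1.83 and 0.0913 CPM in that line. AKR1B10, AKR1C1 and CPS1, for which A549 is known, had clean-air means of 1602, 310 and 118 CPM. In BEAS-2B cells these were 0.194, 0.632 and 10.1 CPM. Leukocyte markers summed to 0 to 0.354 CPM and endothelial markers to 0.253 to 0.861 CPM in any library. Fibroblast markers summed to 1.52 to 2.65 CPM in A549 cells and, mostly through COL1A2, to 15.2 to 18.4 CPM in BEAS-2B cells with clean air, 9.30 to 14.5 after complete and 13.2 to 15.5 after filtered smoke. Ciliated markers, mostly TPPP3, summed to 19.6 to 49.8 CPM in A549 cells and to under 1 CPM in BEAS-2B cells. Shares of reads moved with exposure: in A549 cells multimapping reads took 9.63% to 10.2% in clean-air libraries, 10.3% to 11.8% under complete and 10.3% to 12.03% under filtered smoke. The same shares in BEAS-2B cells were 7.69% to 9.08%, 10.2% to 31.7% and 10.8% to 19.2%. The highest value was BEAS-2B complete smoke sample 3, which also had 12.6% of reads outside genes. In every other exposed library the share outside genes was below all clean-air libraries of its line: 2.56% to 6.41% against 6.49% to 7.56% in A549 cells, and 1.09% to 2.90% against 3.51% to 6.41% in BEAS-2B cells. Summed basal markers in BEAS-2B cells were 731 to 1654 CPM with clean air and 1892 to 3882 CPM with complete smoke; S100A2 and KRT17 made up most of the sum, while mean KRT5 was 93.4 and 95.5 CPM and mean TP63 7.65 and 2.78 CPM. The part of these shifts in the results was not tested. In RNA from a whole insert, fewer responding cells and less RNA per cell cannot be told apart.

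With clean air, ATF4 was the most abundant of the 10 per kilobase of exon in both lines. In A549 cells the order of mean CPM per kilobase was ATF4 at 111.2, DDIT4 at 63.6, PPP1R15A at 47.7, TRIB3 at 19.9, DDIT3 at 13.5, ATF3 at 10.8, JDP2 at 4.34, CHAC1 at 4.06, SESN2 at 1.73 and ASNS at 0.419. In BEAS-2B cells it was ATF4 at 180.1, DDIT4 at 37.8, PPP1R15A at 32.5, DDIT3 at 16.6, TRIB3 at 3.11, ATF3 at 2.84, CHAC1 at 2.11, JDP2 at 2.04, SESN2 at 0.686 and ASNS at 0.0637. In A549 cells the library ranges of DDIT4 and PPP1R15A, of DDIT3 and ATF3, and of JDP2 and CHAC1 overlapped, so these neighbours were not separated by the spread of 3 libraries. In BEAS-2B cells the overlapping neighbours were DDIT4 and PPP1R15A, PPP1R15A and DDIT3, TRIB3 and ATF3, ATF3 and CHAC1, and CHAC1 and JDP2. After either smoke PPP1R15A stood first in A549 cells, at 300.7 CPM per kilobase with complete and 300.9 with filtered smoke, with ATF4 next at 186.5 and 216.3. The library ranges of these 2 genes overlapped under both smokes, and in filtered sample 1 ATF4 was the higher (PPP1R15A to ATF4 ratio 0.930). In BEAS-2B cells ATF4 stayed first, at 386.7 and 396.1 CPM per kilobase, and PPP1R15A was second at 75.2 and 87.8.

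**Figure D1:**
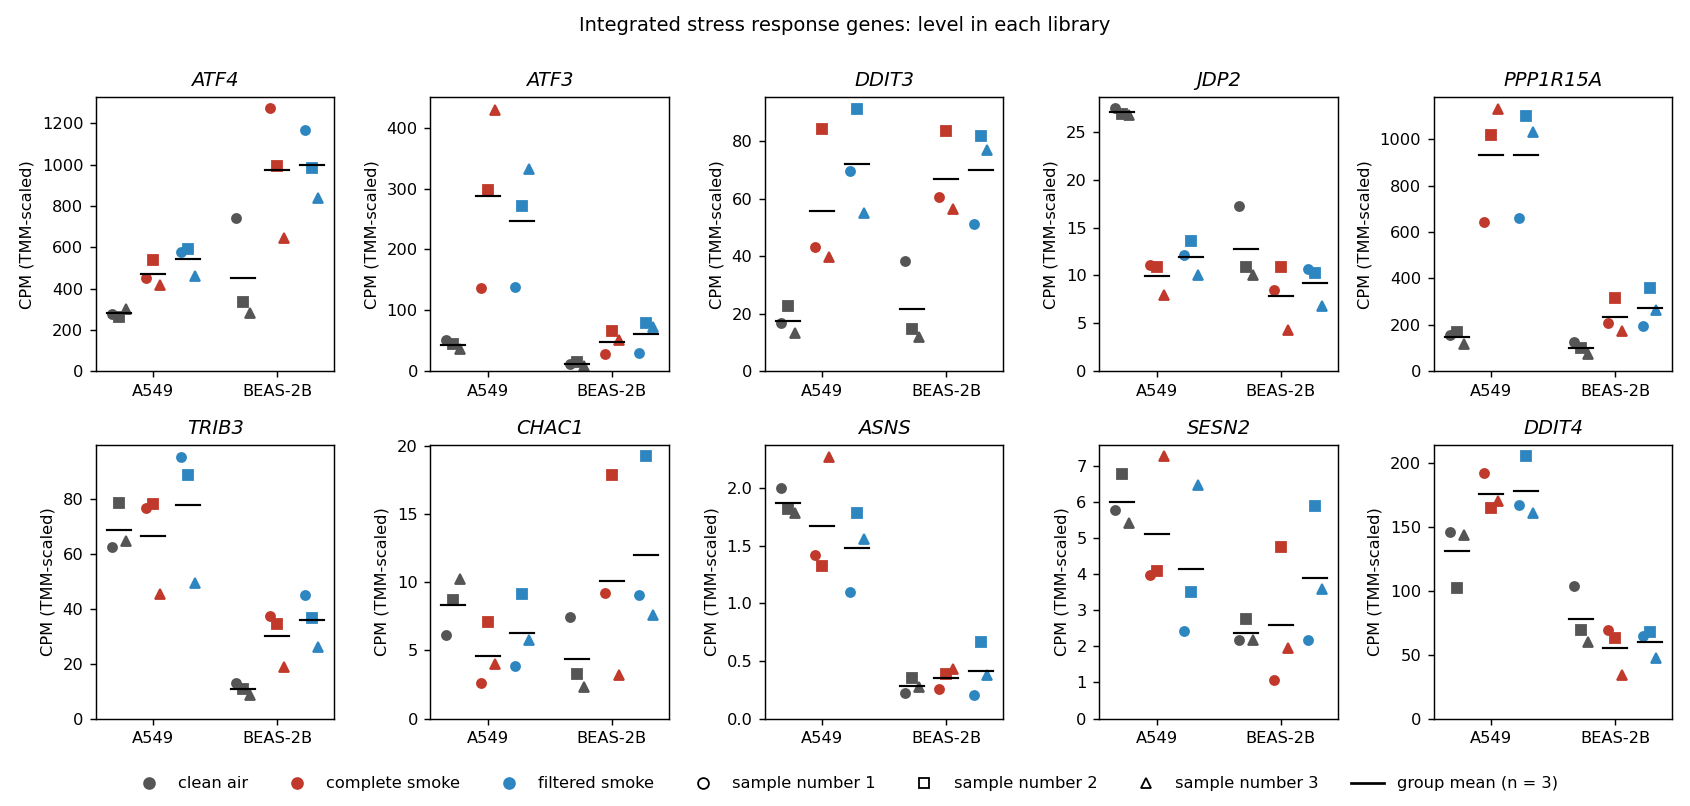
CPM scaled by TMM (linear axis from 0, separate for each gene) of the 10 genes in all 18 libraries, by line (A549 left, BEAS-2B right in each panel) and exposure; marker shape gives the sample number and the line the mean of 3. Exposed libraries of ATF3, ATF4, DDIT3, PPP1R15A, DDIT4 and JDP2 in A549 cells lie clear of clean air under both smokes. So do those of ATF3, DDIT3, PPP1R15A and TRIB3 in BEAS-2B cells. Such separation held for 52.5% (complete) and 57.5% (filtered) of all genes in A549 cells. In BEAS-2B cells it held for 48.8% and 61.4%. ASNS and SESN2 overlap in every comparison with clean air.

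In A549 cells, 4 of the 10 genes rose with complete smoke (ATF3, PPP1R15A, DDIT3 and ATF4), 1 fell (JDP2) and 5 did not pass; of all 15244 genes tested 32.5% passed (15.6% higher and 16.9% lower). Filtered smoke gave the same 5 calls, against 46.7% of all genes (23.1% higher and 23.5% lower). The 10 genes had a median log2 fold change of 0.19 with complete and 0.31 with filtered smoke, beside 0.02 and 0.01 over all genes tested. With library size alone in place of TMM the all-gene medians were -0.10 and -0.15, and the passing genes split into 1586 higher and 2984 lower with complete smoke (2371 and 2580 with TMM) and 2596 and 4253 with filtered smoke (3524 and 3588 with TMM), while the same number of members passed, 4 higher and 1 lower, where 30.0% and 44.9% of all genes did. With the sample number as a block 7 members passed with complete smoke, where 54.6% of all genes did.

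Among the transcription factors, ATF4 is the one whose translation the pathway controls (chr22:39519695-39522685, GENCODE v29 on GRCh38). Its mRNA was 275, 263 and 301 CPM in A549 clean-air samples 1 to 3, 449, 539 and 419 CPM with complete smoke and 577, 593 and 461 CPM with filtered smoke. All 6 exposed libraries lay above the 3 clean-air ones. The log2 fold change was 0.75 ± 0.16 (edgeR adjusted p = 0.00964) with complete and 0.96 ± 0.16 (edgeR adjusted p = 0.00231) with filtered smoke. With all 18 libraries in one fit the complete-smoke value was 0.74 with an edgeR adjusted p of 0.0980, and offsets for GC content and exonic length lowered the changes to 0.36 (edgeR adjusted p = 0.0464) and 0.49 (edgeR adjusted p = 0.0108). Neither change reached 2-fold. ATF3, an early stress-induced factor that mostly represses its targets (chr1:212565334-212620777), rose from 50.7, 43.9 and 36.1 CPM to 136, 297 and 429 CPM with complete and 138, 271 and 332 CPM with filtered smoke. Sample 1 was the lowest exposed library under both smokes and still lay above every clean-air library. The changes were 2.72 ± 0.42 (edgeR adjusted p = 0.00299) and 2.50 ± 0.42 (edgeR adjusted p = 0.00254).

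DDIT3 encodes CHOP, which promotes cell death when stress persists (chr12:57516588-57521737). It rose from 16.9, 22.7 and 13.3 CPM to 43.2, 84.3 and 39.8 CPM with complete and to 69.8, 91.4 and 55.1 CPM with filtered smoke. Sample 2 was the highest in each exposure, and no exposed library overlapped the clean-air ones. Its log2 fold change was 1.66 ± 0.32 (edgeR adjusted p = 0.00716) with complete and 2.03 ± 0.33 (edgeR adjusted p = 0.00214) with filtered smoke. JDP2, a small bZIP repressor that binds the same elements as ATF3 and JUN (chr14:75427716-75474111), went the other way. It stood at 27.5, 26.9 and 26.8 CPM with clean air, at 11.1, 10.9 and 7.95 CPM with complete and at 12.1, 13.6 and 10.0 CPM with filtered smoke. The clean-air libraries differed little from each other and lay above all 6 exposed ones. JDP2 fell by 1.44 ± 0.18 on the log2 scale (edgeR adjusted p = 0.00121) and by 1.18 ± 0.18 (edgeR adjusted p = 0.00157). The ratio of ATF3 to JDP2 per kilobase was therefore 2.84, 2.52 and 2.07 in the clean-air libraries, 19.0, 42.0 and 83.3 with complete and 17.6, 30.8 and 51.0 with filtered smoke.

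PPP1R15A, or GADD34, is the inducible partner of protein phosphatase 1 that removes the phosphate from eIF2 (chr19:48872392-48876057). It rose from 154, 171 and 118 CPM to 642, 1020 and 1129 CPM with complete and to 660, 1101 and 1030 CPM with filtered smoke. As for ATF3, sample 1 was lowest under both smokes and no groups overlapped with clean air. The log2 fold changes were 2.65 ± 0.27 (edgeR adjusted p = 0.00101) and 2.66 ± 0.27 (edgeR adjusted p = 0.00057). PPP1R15B, its constitutive paralogue, was chosen for comparison after its values were seen: it was at 102.6 ± 6.48 CPM with clean air, 105.1 ± 25.3 after complete and 78.4 ± 12.8 after filtered smoke (SD, n = 3) and did not pass (0.03 ± 0.19, edgeR adjusted p = 0.899, and -0.39 ± 0.19, edgeR adjusted p = 0.112). ATF3, DDIT3, PPP1R15A and JDP2 kept their call and direction in A549 cells under each of the 20 alternative settings of either comparison.

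The remaining feedback and metabolic genes did not pass in A549 cells. TRIB3, a pseudokinase that binds ATF4 and AKT (chr20:362835-397559), was at 62.3, 78.3 and 64.7 CPM with clean air, 76.7, 77.9 and 45.1 CPM with complete and 95.3, 88.4 and 49.3 CPM with filtered smoke. Sample 3 was low in both exposures and the groups overlapped. Its change was -0.04 ± 0.27 (95% interval -0.64 to 0.56, edgeR adjusted p = 0.919) with complete and 0.18 ± 0.27 (-0.42 to 0.79, edgeR adjusted p = 0.601) with filtered smoke. With GC and length offsets and the sample-number block together, TRIB3 passed as lower under both, at -0.43 (edgeR adjusted p = 0.0141) and -0.33 (edgeR adjusted p = 0.0416). CHAC1, a glutathione-degrading enzyme (chr15:40952962-40956519), was at 6.13, 8.68 and 10.3 CPM, then 2.62, 7.12 and 3.98 CPM with complete and 3.87, 9.14 and 5.73 CPM with filtered smoke. Within each sample number the complete-smoke library was the lower, although the groups overlapped. The change with complete smoke was -0.85 ± 0.39 (edgeR adjusted p = 0.112), and with the sample number as a block -0.92 (edgeR adjusted p = 0.00364); with filtered smoke it was -0.41 ± 0.39 (edgeR adjusted p = 0.400). With GC and length offsets CHAC1 passed as lower under both smokes, at -1.39 (edgeR adjusted p = 0.0250) and -1.12 (edgeR adjusted p = 0.0422), and with no low-count filter under complete smoke (-0.84, edgeR adjusted p = 0.00836).

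DDIT4, or REDD1, restrains the growth kinase complex TORC1 (chr10:72273920-72276036). It was at 146, 103 and 144 CPM with clean air, 192, 165 and 171 CPM after complete and 167, 206 and 161 CPM after filtered smoke, and all exposed libraries lay above the clean-air ones. Groups did not overlap for 52.5% of all genes with complete smoke and 57.5% with filtered smoke; among the 10 members this held for 6 in each. The DDIT4 change was 0.43 ± 0.17 (edgeR adjusted p = 0.0780) and 0.44 ± 0.17 (edgeR adjusted p = 0.0566), and with the sample number as a block 0.43 (edgeR adjusted p = 0.0302) and 0.45 (edgeR adjusted p = 0.0208). With offsets for GC content and exonic length it was -0.03 and -0.12, so its sign depends on that choice. With upper-quartile scaling it passed, at 0.49 (edgeR adjusted p = 0.0467) and 0.53 (edgeR adjusted p = 0.0284). For filtered smoke DDIT4 also passed with DESeq2 size factors (edgeR adjusted p = 0.0496) and the DESeq2 Wald test (adjusted p = 0.0309). So it did with counts that ignore strand (edgeR adjusted p = 0.0442) and without filtered sample 3 (edgeR adjusted p = 0.0289). SESN2, a leucine sensor that also restrains TORC1 (chr1:28259527-28282491), was at 5.76, 6.77 and 5.41 CPM with clean air, 3.97, 4.08 and 7.27 CPM with complete and 2.41, 3.51 and 6.45 CPM with filtered smoke. Samples 1 and 2 were low and sample 3 high under both smokes, and the groups overlapped (-0.23 ± 0.35, edgeR adjusted p = 0.628, and -0.53 ± 0.35, edgeR adjusted p = 0.236). With filtered smoke SESN2 passed as lower without filtered sample 3 (-1.003, edgeR adjusted p = 0.0177) and with offsets and block together (-1.02, edgeR adjusted p = 0.0119).

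ASNS, asparagine synthetase (chr7:97852118-97872542), is the least certain of the 10. It had 15 to 40 counts per A549 library and 6 to 32 per BEAS-2B library. Of its 4455 exonic bases, 1985 (44.6%) are shared with another gene model on the same strand, ENSG00000284707, and reads that match 2 genes are not counted for either. That model itself had 14 to 30 counts per A549 library and 4 to 13 per BEAS-2B library. The counts therefore cover only part of ASNS mRNA. A549 values were 2.002, 1.82 and 1.78 CPM with clean air, 1.42, 1.33 and 2.27 CPM with complete and 1.10, 1.78 and 1.55 CPM with filtered smoke. The groups overlapped, and the changes were -0.16 ± 0.29 (edgeR adjusted p = 0.686) and -0.32 ± 0.29 (edgeR adjusted p = 0.375).

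**Figure D2:**
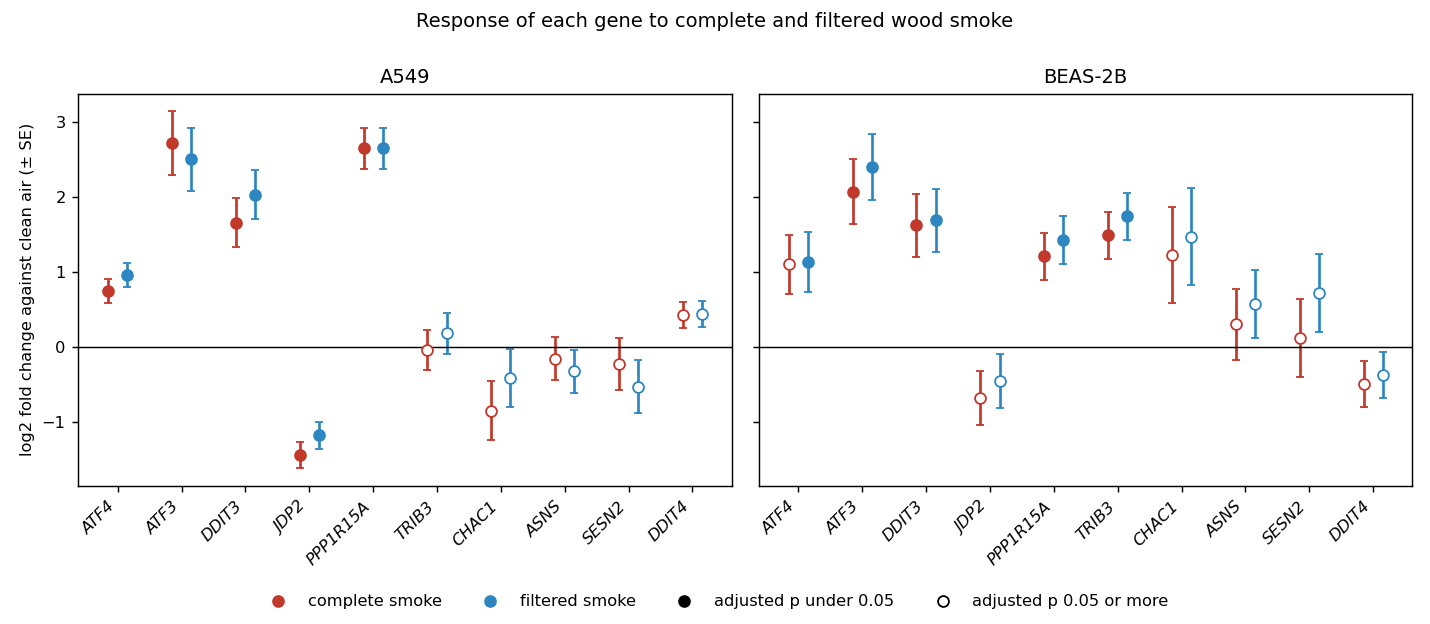
Log2 fold change against clean air (± SE) of the 10 genes under complete (red) and filtered (blue) smoke in A549 (left) and BEAS-2B cells (right), from 3 libraries a group; filled points have an adjusted p under 0.05. PPP1R15A reached 2.65 in A549 and 1.21 in BEAS-2B cells with complete smoke, whereas TRIB3 was at -0.04 and 1.49.

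In BEAS-2B cells, 4 of the 10 genes rose with complete smoke (ATF3, DDIT3, TRIB3 and PPP1R15A) and 6 did not pass, where 41.0% of all 16356 genes tested passed (21.5% higher and 19.5% lower). With filtered smoke ATF4 passed too, giving 5 higher and 5 not passing, where 48.6% of all genes passed (23.6% higher and 24.9% lower). No member was called lower in either comparison. The median log2 fold change of the 10 was 1.16 with complete and 1.29 with filtered smoke, beside -0.06 and -0.07 over all genes tested. Scaling by library size alone put the all-gene median at -0.75 and -0.74. Under that scaling 3 members passed as higher and 2 as lower in each comparison, where 51.1% and 55.5% of all genes passed, and all genes split into 1531 higher and 6835 lower with complete smoke, against 3517 and 3187 with TMM, and into 1663 higher and 7415 lower with filtered smoke, against 3867 and 4080.

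ATF3 rose in BEAS-2B cells from 11.1, 15.4 and 7.96 CPM to 28.9, 65.3 and 50.5 CPM with complete and 30.0, 79.8 and 72.2 CPM with filtered smoke. As in A549 cells, sample 1 was the lowest exposed library and no exposed library overlapped clean air. The changes were 2.07 ± 0.43 (edgeR adjusted p = 0.00786) and 2.40 ± 0.44 (edgeR adjusted p = 0.00495). DDIT3 was at 38.4, 14.7 and 11.99 CPM with clean air, 60.7, 83.8 and 56.4 CPM with complete and 51.2, 82.0 and 76.9 CPM with filtered smoke. Clean-air sample 1 was high, yet every exposed library lay above it. DDIT3 rose by 1.63 ± 0.42 (edgeR adjusted p = 0.0165) and 1.69 ± 0.42 (edgeR adjusted p = 0.0127). The complete-smoke call was lost without complete sample 2, control sample 2 or control sample 3, with edgeR adjusted p of 0.0568, 0.0664 and 0.0560, and the filtered-smoke call without control sample 2 (0.0525).

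ATF4 in BEAS-2B cells was at 742, 336 and 280 CPM with clean air, 1276, 994 and 647 CPM after complete and 1165, 985 and 837 CPM after filtered smoke. Clean-air sample 1 exceeded complete-smoke sample 3 but lay below all filtered-smoke libraries. The changes were 1.10 ± 0.40 (edgeR adjusted p = 0.0502) and 1.14 ± 0.40 (edgeR adjusted p = 0.0401). Without control sample 1 the complete-smoke change was 1.67 (edgeR adjusted p = 0.00389), and without complete sample 3 it was 1.35 (edgeR adjusted p = 0.0178). The filtered-smoke call was lost when any of filtered samples 1, 2 and 3 or control samples 2 and 3 was left out (edgeR adjusted p from 0.0553 to 0.132), and with library size alone (0.52, edgeR adjusted p = 0.113). JDP2 was at 17.2, 10.9 and 10.1 CPM with clean air, 8.46, 10.9 and 4.34 CPM with complete and 10.7, 10.3 and 6.78 CPM with filtered smoke. The groups overlapped, and the changes were -0.69 ± 0.36 (edgeR adjusted p = 0.145) and -0.46 ± 0.36 (edgeR adjusted p = 0.303). With library size alone they were -1.37 (edgeR adjusted p = 0.00786) and -1.11 (edgeR adjusted p = 0.0144).

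PPP1R15A rose in BEAS-2B cells from 127, 100.5 and 74.1 CPM to 207, 315 and 175 CPM with complete and 194, 357 and 264 CPM with filtered smoke. Sample 2 was the highest in both exposures, and no exposed library overlapped clean air. The changes were 1.21 ± 0.32 (edgeR adjusted p = 0.0173) and 1.43 ± 0.32 (edgeR adjusted p = 0.00892). With library size alone they were 0.55 (edgeR adjusted p = 0.160) and 0.81 (edgeR adjusted p = 0.0519). The complete-smoke call was also lost without complete sample 2 (0.94), control sample 2 (1.21) or control sample 3 (1.03), with edgeR adjusted p from 0.0610 to 0.0694. TRIB3 rose from 12.9, 10.6 and 8.58 CPM to 37.2, 34.3 and 18.6 CPM with complete and 44.9, 36.7 and 26.1 CPM with filtered smoke. Sample 3 was the lowest in each group and no groups overlapped with clean air. The TRIB3 changes were 1.49 ± 0.31 (edgeR adjusted p = 0.00786) and 1.75 ± 0.31 (edgeR adjusted p = 0.00473). ATF3 and TRIB3 kept their calls and direction in all 21 alternatives of both comparisons.

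CHAC1 was at 7.47, 3.25 and 2.31 CPM in BEAS-2B cells with clean air, 9.25, 17.9 and 3.22 CPM with complete and 9.09, 19.3 and 7.61 CPM with filtered smoke. Sample 2 was far above the others in both exposures, and clean air did not overlap filtered smoke, as for 61.4% of all genes (48.8% with complete smoke). The changes were 1.23 ± 0.64 (edgeR adjusted p = 0.146) and 1.47 ± 0.65 (edgeR adjusted p = 0.0832), the latter 1.46 with the sample number as a block (edgeR adjusted p = 0.00787). Without control sample 1 the filtered-smoke change was 2.12 (edgeR adjusted p = 0.0324), and without complete sample 3 the complete-smoke change was 1.67 (edgeR adjusted p = 0.0273). Other settings lowered CHAC1: it was 0.54 without complete sample 2 (edgeR adjusted p = 0.529) and 0.96 without filtered sample 2 (edgeR adjusted p = 0.282), and GC and length offsets gave 0.68 and 0.88, or 0.75 for filtered smoke with offsets and block together (edgeR adjusted p = 0.0601). Without control sample 1 and complete sample 3 together, 6 members passed in each comparison, where 63.5% and 63.4% of all genes did, with ATF4 at 1.90 and CHAC1 at 2.32 with complete smoke (edgeR adjusted p = 0.000271 and 0.00474).

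DDIT4 in BEAS-2B cells was at 104, 69.7 and 60.0 CPM with clean air, 69.2, 63.0 and 34.0 CPM with complete and 64.5, 67.5 and 47.5 CPM with filtered smoke. The groups overlapped, and the changes were -0.49 ± 0.31 (edgeR adjusted p = 0.215) and -0.38 ± 0.31 (edgeR adjusted p = 0.318). With library size alone DDIT4 passed as lower, at -1.18 (edgeR adjusted p = 0.00421) and -1.03 (edgeR adjusted p = 0.00676), and so it did with GC and length offsets, at -1.07 (edgeR adjusted p = 0.00132) and -1.0006 (edgeR adjusted p = 0.00162). SESN2 was at 2.17, 2.77 and 2.17 CPM with clean air, 1.06, 4.73 and 1.94 CPM with complete and 2.18, 5.89 and 3.58 CPM with filtered smoke. Sample 2 was the highest of each exposed group, and the changes were 0.12 ± 0.52 (edgeR adjusted p = 0.864) and 0.72 ± 0.52 (edgeR adjusted p = 0.264). ASNS values were 0.225, 0.349 and 0.277 CPM, then 0.253, 0.385 and 0.427 CPM, and 0.204, 0.668 and 0.377 CPM. They overlapped, with changes of 0.30 ± 0.47 (edgeR adjusted p = 0.620) and 0.58 ± 0.46 (edgeR adjusted p = 0.310).

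Gene span moved with the response in all 4 comparisons with clean air. Genes were ranked by span into 5 classes of equal size. Class 1, the shortest, which holds ATF4, DDIT3, PPP1R15A, CHAC1 and DDIT4, had a median log2 fold change of 0.54 and 0.65 in A549 and 0.68 and 0.76 in BEAS-2B cells (complete and filtered smoke). Class 4, which holds ATF3 and, in BEAS-2B cells, JDP2, had medians of -0.29, -0.33, -0.43 and -0.48. TRIB3 lay in class 3, which in A549 cells also held JDP2, with medians of 0.00 and -0.02 in A549 and -0.11 and -0.05 in BEAS-2B cells. The part of gene span in the members' changes was not tested.

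Whether the filter made a difference was asked by setting complete against filtered smoke within each line. No member passed in either line, and neither did any other gene (0 of 15244 and 0 of 16356, edgeR); at an unadjusted p under 0.05 there were 236 and 222 genes, none of them a member. The DESeq2 Wald test gave 3 genes in A549 and 0 in BEAS-2B cells, and limma-voom 0 in both, again with no member. No member's groups were free of overlap, against 4.08% and 5.21% of all genes. The 95% intervals of the difference, complete minus filtered, (not adjusted for the number of genes) bound the difference of each member. In A549 cells they were -0.57 to 0.57 for PPP1R15A, -0.40 to 0.36 for DDIT4, -0.56 to 0.14 for ATF4, -0.65 to 0.13 for JDP2, -0.66 to 1.10 for ATF3, -1.06 to 0.32 for DDIT3 and -1.32 to 0.44 for CHAC1. In BEAS-2B cells they were wider, from -0.93 to 0.48 for PPP1R15A, -0.94 to 0.43 for TRIB3, -0.99 to 0.86 for DDIT3, -1.26 to 0.60 for ATF3, -1.66 to 1.17 for CHAC1 and -1.76 to 0.56 for SESN2. Differences of 2-fold were thus outside the interval for PPP1R15A, DDIT4, ATF4, JDP2, TRIB3 and ASNS in A549 cells and inside it for ATF3, DDIT3, CHAC1 and SESN2 there. Within sample numbers, ATF4, DDIT3, TRIB3, CHAC1 and JDP2 were lower with complete smoke in 3 of 3 A549 pairs and SESN2 was higher in 3 of 3. In BEAS-2B cells ATF3, TRIB3 and SESN2 were lower in 3 of 3. The share of all genes with such agreement was not computed, so these counts are not set apart from the background. In A549 cells class 1 of gene span, which holds ATF4, DDIT3, PPP1R15A, CHAC1 and DDIT4, had a median of -0.12 (complete minus filtered). With the sample number as a block no member passed either, and the A549 intervals narrowed: DDIT3 was at -0.42 (-0.71 to -0.13, edgeR adjusted p = 0.756), CHAC1 at -0.46 (-0.94 to 0.0251, edgeR adjusted p = 0.756) and ATF3 at 0.19 (-0.42 to 0.79, edgeR adjusted p = 0.862). BEAS-2B intervals narrowed too, with SESN2 at -0.68 (-1.31 to -0.05, edgeR adjusted p = 0.790) and ATF3 at -0.31 (-0.86 to 0.23, edgeR adjusted p = 0.811). The block intervals of DDIT3 in A549 and SESN2 in BEAS-2B cells excluded 0, without adjustment for the number of genes.

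The lines were compared by the difference of their responses, BEAS-2B minus A549, in a fit of all 18 libraries. No member passed with either smoke, where 1.74% of 17703 genes passed with complete smoke (0.565% higher and 1.17% lower) and 0.825% with filtered smoke (0.311% and 0.514%). At an unadjusted edgeR p under 0.05 there were 4 members in each, beside 3070 of the 17703 genes with complete and 2449 with filtered smoke. The DESeq2 Wald test called 2 members with complete and 1 with filtered smoke, where it called 5.19% and 4.12% of the genes it tested. For TRIB3 the response was 1.54 ± 0.44 higher in BEAS-2B cells with complete smoke (edgeR adjusted p = 0.0871) and 1.59 ± 0.44 higher with filtered smoke (edgeR adjusted p = 0.101). PPP1R15A differed the other way, by -1.43 ± 0.43 (edgeR adjusted p = 0.102) and -1.20 ± 0.43 (edgeR adjusted p = 0.214). CHAC1 differed by 2.12 ± 0.80 (edgeR adjusted p = 0.189) and 1.92 ± 0.80 (edgeR adjusted p = 0.287), and DDIT4 by -0.90 ± 0.37 (edgeR adjusted p = 0.220) and -0.80 ± 0.37 (edgeR adjusted p = 0.342). For DDIT3, the 95% interval of the difference was -1.09 to 1.08 with complete smoke, and for ATF3 -1.96 to 0.64. With the sample number as a block, 5 members differed between lines under filtered smoke, where 15.5% of all genes did: TRIB3 at 1.62 (edgeR adjusted p = 0.000405), PPP1R15A at -1.17 (edgeR adjusted p = 0.0195), CHAC1 at 1.95 (edgeR adjusted p = 0.0261), DDIT4 at -0.80 (edgeR adjusted p = 0.0273) and SESN2 at 1.25 (edgeR adjusted p = 0.0424). Without BEAS-2B complete sample 3, TRIB3 differed by 1.82 with complete smoke (edgeR adjusted p = 0.0242).

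**Figure D3:**
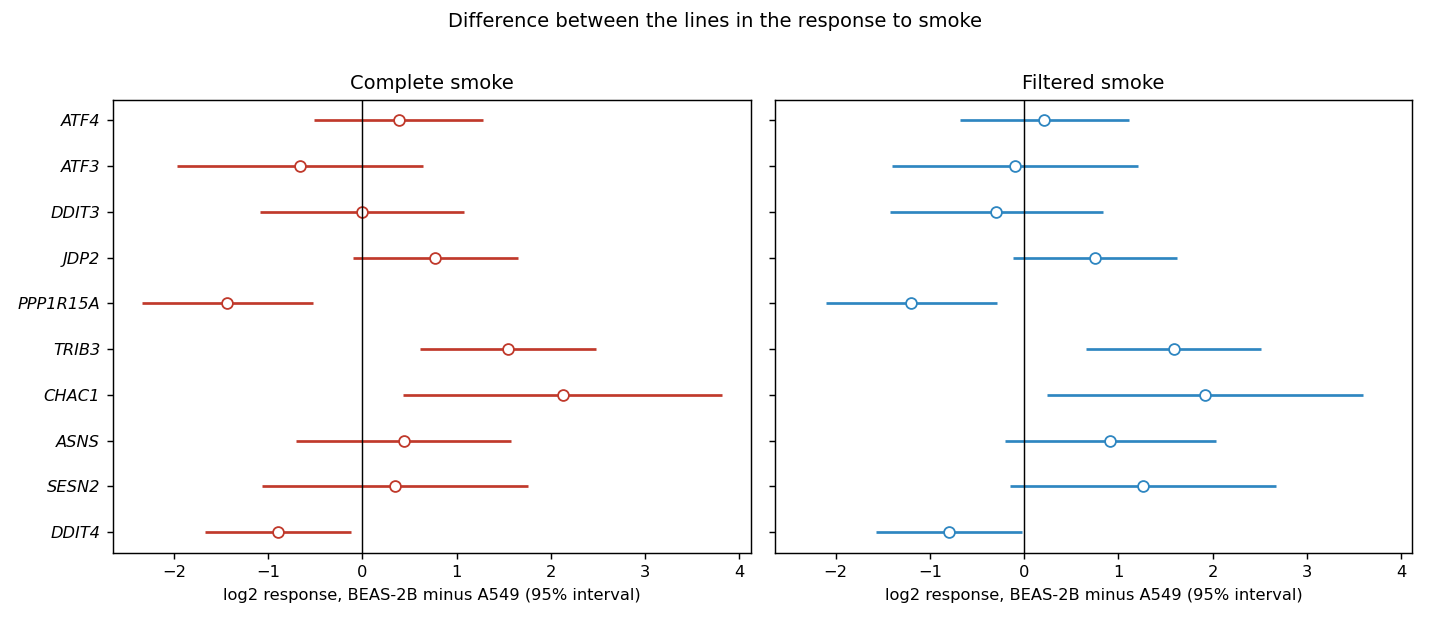
Difference of the log2 response to complete (left) and filtered smoke (right), BEAS-2B minus A549, for each gene, with its 95% interval (unadjusted) from the fit of 18 libraries. TRIB3 and CHAC1 lie to the right of 0 and PPP1R15A and DDIT4 to the left under both smokes, and no adjusted p was under 0.05.

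Other genes of the pathway were read from fixed lists. Of 20 genes for eIF2 kinases, eIF2 and eIF2B subunits and phosphatase partners, 8 rose and 4 fell in A549 cells with complete smoke, and 9 and 4 with filtered smoke. In BEAS-2B cells 7 rose and 4 fell, and 8 and 3. In all, 60%, 65%, 55% and 55% of the list passed, beside 32.5%, 46.7%, 41.0% and 48.6% of all genes in the same order. Medians were 0.31, 0.36, 0.33 and 0.18, beside 0.02, 0.01, -0.06 and -0.07 over all genes; no list was tested against other genes. EIF2AK3, which encodes PERK, the eIF2 kinase of the endoplasmic reticulum, fell from 43.5 ± 3.86 to 21.0 ± 5.34 CPM in A549 cells (-1.05 ± 0.25, edgeR adjusted p = 0.0157) and from 24.1 ± 5.63 to 7.77 ± 2.84 CPM in BEAS-2B cells (-1.63 ± 0.37, edgeR adjusted p = 0.0105) with complete smoke (SD, n = 3). EIF2B3, a subunit of the exchange factor, rose from 11.8 ± 0.471 to 26.2 ± 6.79 CPM (1.15 ± 0.25, edgeR adjusted p = 0.0112) and from 30.5 ± 7.75 to 93.7 ± 7.91 CPM (1.62 ± 0.21, edgeR adjusted p = 0.0019). EIF2AK2, the kinase for double-stranded RNA, fell by 0.91 in A549 cells, and EIF2B2 rose by 0.78 in A549 and 1.49 in BEAS-2B cells.

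Among 21 amino acid synthesis and transport genes known as ATF4 targets, 1 rose and 7 fell in A549 cells with complete smoke, and 2 and 8 with filtered smoke. In BEAS-2B cells 2 rose and 2 fell, and 4 and 3. The shares passing were 38.1%, 47.6%, 19.0% and 33.3%, near the all-gene shares in A549 cells and below them in BEAS-2B cells. Medians were -0.26, -0.18, -0.17 and -0.06. SLC7A11, the cystine importer, fell from 644.5 ± 37.0 to 186.7 ± 67.9 CPM in A549 cells with complete smoke (-1.79 ± 0.33, edgeR adjusted p = 0.00607), and SLC7A1, a cationic amino acid importer, fell by 1.42 (edgeR adjusted p = 0.00124). PYCR1, an enzyme of proline synthesis, rose in both lines, by 0.94 ± 0.30 in A549 (edgeR adjusted p = 0.0382) and 1.69 ± 0.37 in BEAS-2B cells (edgeR adjusted p = 0.00904) with complete smoke. In BEAS-2B cells SLC38A2, a neutral amino acid importer, fell by 1.36 and PCK2, a mitochondrial enzyme of phosphoenolpyruvate synthesis, rose by 1.21.

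Of 13 other stress genes known as ATF4 or CHOP targets, 3 rose and 2 fell in A549 cells with complete smoke, and 2 and 4 with filtered smoke; in BEAS-2B cells 1 rose and 2 fell, and 2 and 2. The shares passing were 38.5%, 46.2%, 23.1% and 30.8%, and medians were -0.27, -0.26, -0.30 and -0.33. GDF15, a secreted stress cytokine, rose from 83.0 ± 9.24 to 191.8 ± 49.5 CPM in A549 cells with complete smoke (1.21 ± 0.29, edgeR adjusted p = 0.0150). STC2, a secreted glycoprotein, was at 99.5 ± 12.997 CPM with clean air, 257.6 ± 154 after complete and 83.2 ± 24.5 after filtered smoke (1.37 ± 0.38, edgeR adjusted p = 0.0234, and -0.26 ± 0.37, edgeR adjusted p = 0.592). The complete-smoke libraries spread widely, and set directly against filtered smoke 0 of 15244 genes, STC2 included, passed in edgeR. The STC2 response to complete smoke was lower in BEAS-2B than in A549 cells by -1.90 ± 0.45 (edgeR adjusted p = 0.0430), and that of VEGFA, the vascular growth factor, by -1.09 ± 0.27 (edgeR adjusted p = 0.0469).

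The unfolded protein response has arms beside PERK, led by IRE1 and ATF6. Of 14 genes for these arms, none rose and 4 fell in A549 cells with complete smoke, and 1 rose and 5 fell with filtered smoke. BEAS-2B cells had 0 that rose and 6 that fell with each smoke. The shares passing, 28.6%, 42.9%, 42.9% and 42.9%, were near or below those of all genes, and medians were -0.27, -0.36, -0.49 and -0.59. DNAJC3, a co-chaperone that also inhibits eIF2 kinases, fell from 89.8 ± 15.7 to 31.6 ± 9.14 CPM in A549 (-1.504 ± 0.31, edgeR adjusted p = 0.00914) and from 78.2 ± 15.1 to 16.6 ± 7.57 CPM in BEAS-2B cells (-2.23 ± 0.38, edgeR adjusted p = 0.00386) with complete smoke. HSPA5, the chaperone BiP, fell from 2136 ± 470 to 745.3 ± 93.1 CPM in BEAS-2B cells (-1.52 ± 0.27, edgeR adjusted p = 0.00454). SEL1L, part of the machinery that removes misfolded proteins, fell by 1.05 in A549 and 2.04 in BEAS-2B cells.

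The AP-1 and CREB-family partners of ATF3 and JDP2 moved in both directions. Of 11 tested, 6 rose and 4 fell in A549 cells with each smoke, and in BEAS-2B cells 5 rose and 2 fell with complete and 5 and 3 with filtered smoke (BATF was under the count minimum). The shares passing were 90.9% with each smoke in A549 cells and 63.6% and 72.7% in BEAS-2B cells, and medians were 0.85, 1.04, 0.86 and 1.05. FOS rose from 35.7 ± 19.8 to 360.3 ± 86.6 CPM in A549 (3.34 ± 0.43, edgeR adjusted p = 0.00147) and from 4.27 ± 5.06 to 114.1 ± 46.0 CPM in BEAS-2B cells (4.73 ± 0.81, edgeR adjusted p = 0.00397) with complete smoke. JUN rose by 2.50 ± 0.32 in A549 (edgeR adjusted p = 0.00152) and 1.11 ± 0.32 in BEAS-2B cells (edgeR adjusted p = 0.0244). CREB1, which binds the CRE, fell by 1.01 in A549 and 0.71 in BEAS-2B cells. Among 21 tested genes of TORC1 and its nutrient sensors, the complex that SESN2 and DDIT4 restrain, 1 rose and 3 fell in A549 cells with complete and 3 and 6 with filtered smoke; in BEAS-2B cells 2 rose and 4 fell, and 4 and 6 (CASTOR1 was under the count minimum), or 19.0%, 42.9%, 28.6% and 47.6% passing. RICTOR, the defining subunit of the sister complex TORC2, fell by 1.48 in A549 cells, and SESN3 fell by 1.81 in BEAS-2B cells with complete smoke. Every comparison within a line uses the same clean-air libraries, so the complete and filtered counts above are not independent.

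**Figure D4:**
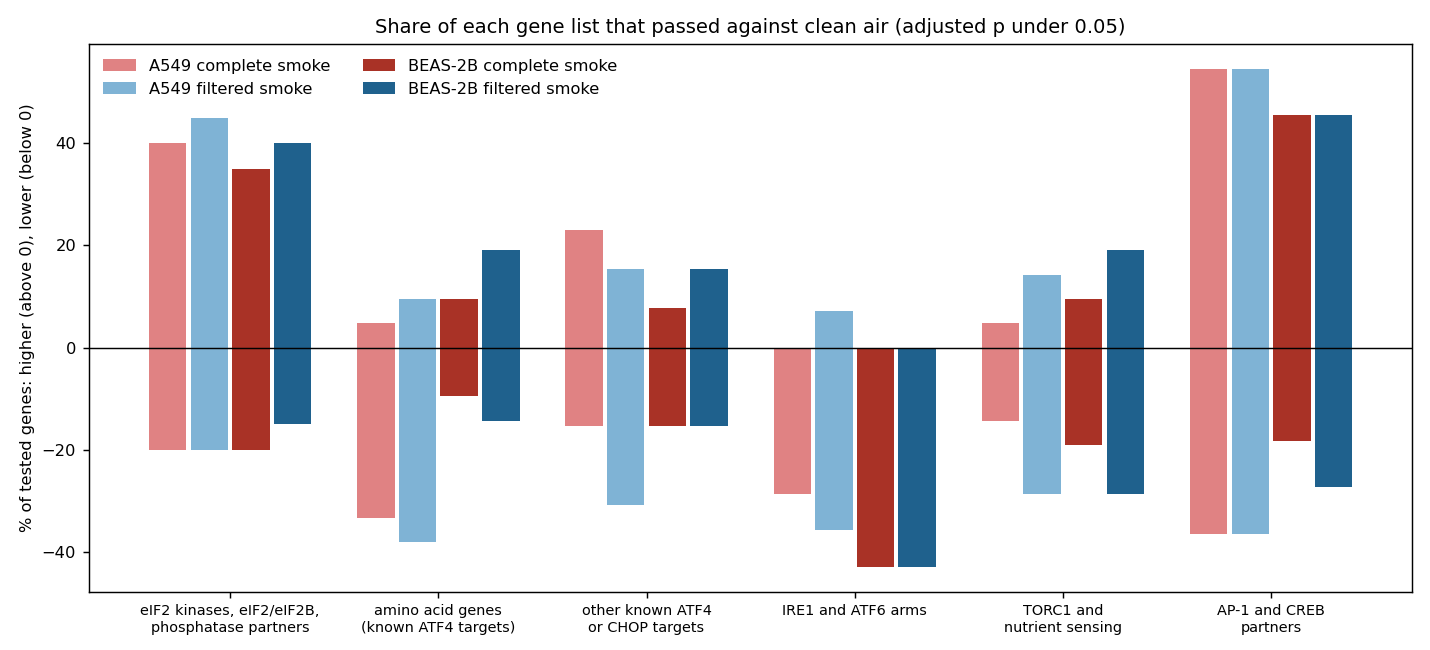
Percent of the tested genes of 6 fixed lists that passed against clean air (adjusted p under 0.05), higher above 0 and lower below 0, in A549 and BEAS-2B cells with complete and filtered smoke. The IRE1 and ATF6 list lies almost wholly below 0, with 0 higher and 6 lower of 14 (42.9%) in BEAS-2B cells under each smoke. Of all genes there, 19.5% were lower with complete and 24.9% with filtered smoke, and 41.0% and 48.6% passed in either direction. The AP-1 and CREB list shows bars on both sides.

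Across the 18 libraries, with each line's mean removed, ATF3 and PPP1R15A varied together (Pearson r = 0.94; 0.98 over the 9 A549 and 0.93 over the 9 BEAS-2B libraries). These correlations run over exposed and clean-air libraries that share their scaling, and they are given as descriptions. DDIT3 followed ATF4 (0.95 in A549, 0.90 in BEAS-2B) and PPP1R15A (0.91 and 0.95). TRIB3 followed ATF4 in BEAS-2B cells (0.93) and much less in A549 cells (0.31). JDP2 ran against ATF3 in A549 cells (-0.94) and less so in BEAS-2B cells (-0.50), where it ran with DDIT4 (0.96). Among 10150 protein-coding genes compared, the 3 most like ATF3 were IER5 (0.965), MAFF (0.962) and SNAI1 (0.955), and the 3 most like PPP1R15A were JUN (0.972), ING1 (0.971) and PIM3 (0.969). The 3 most like ATF4 were UBXN1 (0.994), UBL7 (0.991) and SCAMP3 (0.991), and those most like JDP2 were SH3BP5L (0.940), CALHM2 (0.935) and RNF185 (0.932).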

How the data were processed

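The 18 samples fall into 6 groups of 3 by the labels' line and exposure. The labels do not state separate cultures for the samples within a group; p-values then reflect sample-to-sample spread only, possibly technical. The deposited files hold read counts per gene in 3 columns (strand ignored, first strand, second strand) and 4 summary lines; the authors made them with STAR 2.7.10b on GRCh38, per the submitters' processing notes, from TRIzol-extracted RNA and TruSeq mRNA libraries, per the labels' protocols. The annotation release is not given in the sources used here. The kit that the labels name is an unstranded one, yet the second-strand column held 11.7 to 17.1 times the counts of the first. That column was used, and the reason for the conflict was not tested. Of 62649 IDs, 62625 had a symbol and 58225 were in GENCODE v29, the source of positions, spans and exonic lengths.

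Genes passing filterByExpr were scaled by TMM and tested in edgeR 4.0.16 (R 4.3.3; quasi-likelihood, robust) on the 9 libraries of a line, and for line differences on all 18. SEs and 95% intervals were derived from the test statistic, and CPM used the TMM-scaled library sizes. Biological coefficients of variation were 0.209 (A549), 0.299 (BEAS-2B) and 0.258 (all 18). The scripts were tested on simulated data (15244 and 16356 genes). Depth was about 14438400 to 55032500 counts per library.

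Named genes are the 10 members and, from each fixed list, up to 4 passing genes with the largest change and a mean of at least 5 CPM; likeness used log2 CPM with a pseudocount of 0.5. The members and lists were chosen with earlier results of these data known. Sample numbers were taken as pairs where every same-numbered pair of libraries correlated above 0.1 in their deviations from the group means: all A549 comparisons (0.24 to 0.84) and, in BEAS-2B cells, those of filtered smoke with clean air (0.66, 0.23 and 0.68) and with complete smoke (0.79, 0.39 and 0.77). BEAS-2B control sample 2 was nevertheless closer to filtered sample 3 (0.56) than to filtered sample 2 (0.23). The labels do not say that a number marks a shared culture or day, so results with the block rest on an assumed pairing. Alternatives were DESeq2 size factors, library size alone, upper-quartile scaling, no or a stricter filter (1 CPM in 6 libraries), DESeq2 1.42.0, limma-voom (limma 3.58.1), GC and length offsets, with and without a sample-number block, and that block alone (96.9% to 97.7% of tested genes had both values), counts that ignore strand, only the libraries compared, all 18 libraries, a 2-fold minimum, each library left out, and BEAS-2B without control 1 and complete 3.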

Additional observations from a re-analysis of the deposited data

How the results depend on the processing

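Each member's change was recomputed under 20 to 25 alternative settings per comparison, 1727 values in all: 1543 kept their direction and their side of the threshold, 90 newly passed, 18 no longer passed and 76 changed sign. Of the 76, 1 passed in its new direction (TRIB3 in A549 cells with filtered smoke under offsets and block, edgeR adjusted p = 0.0416) and none had passed before. ASNS in BEAS-2B cells has no value under the stricter filter, which removes it. The cause of these changes was not tested. Members passing were 8 in A549 cells with filtered smoke under GC and length offsets with replicate block (all genes: 8626 of 15244, or 56.6%), and in BEAS-2B cells with complete smoke 8 with replicate block alone (all genes: 10315 of 16356, or 63.1%) and 7 with the offsets too (9936, or 60.7%). Leaving out single libraries gave 5 in A549 cells with complete smoke and 5 to 7 with filtered smoke (7 without filtered sample 3). Of all genes, 1422 to 6805 and 4006 to 9015 passed in these fits. In BEAS-2B cells it gave 2 to 6 with complete smoke (2 without complete sample 2, control sample 2 or control sample 3) and 3 to 6 with filtered smoke (3 without control sample 2). All genes passing there were 2916 to 9026 and 3652 to 9276. The line difference with complete smoke, with 0 members in the report, had 2 with library size alone, 3 with no low-count filter, 2 with the DESeq2 Wald test, 4 with replicate block, 2 with the offsets, 5 with offsets and block, 4 without BEAS-2B control 1 and complete 3 together and 0 to 1 without single libraries (1 without BEAS-2B complete sample 3). With filtered smoke it had 2, 2, 1, 5, 1, 5 and 2 in the same order and 0 without any single library. More of all genes passed too under each of these settings, single libraries aside. With the DESeq2 Wald test 5.19% (complete) and 4.12% (filtered) did, beside 1.74% and 0.825% in the report. With the block 15.5% passed for filtered smoke, and the other counts are given below. Without single libraries 87 to 797 genes (complete) and 47 to 182 (filtered) passed. The sample numbers of control and complete smoke in BEAS-2B cells were not taken as pairs (correlations 0.76, -0.21 and 0.77, each sample closest to its own number except sample 2); the block changed no other call of a member in the report than those given there and in this paragraph.

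Values that changed sign lay mostly near 0. With upper-quartile scaling TRIB3 was 0.0256 in A549 cells with complete smoke. With GC and length offsets DDIT4 in A549 cells was -0.0267 (complete smoke) and -0.12 (filtered), or -0.0231 and -0.11 with the block, and TRIB3 -0.31 with filtered smoke (-0.33 with the block). In complete against filtered smoke in A549 cells, PPP1R15A was 0.0284 with library size alone, 0.00355 with the stricter filter, 0.000315 with the block, 0.0865 with the offsets and 0.0837 with offsets and block, and DDIT4 was 0.0205 with library size alone, 0.0899 with the offsets and 0.0854 with both. In BEAS-2B cells with complete smoke, library size alone gave -0.38 for ASNS and -0.55 for SESN2, and SESN2 was -0.15 with limma-voom, -0.0800 with the block, -0.23 with the offsets and -0.39 with both; ASNS was -0.0915 with library size alone with filtered smoke. Without BEAS-2B control 1 and complete 3 together, DDIT4 was 0.0522 with complete smoke, and in complete against filtered smoke ATF4 was 0.19, DDIT3 0.0454, TRIB3 0.000120, CHAC1 0.18, DDIT4 0.15 and JDP2 0.0689; ATF4 there was 0.0218 with the offsets and 0.00324 with offsets and block. In the line difference with complete smoke, library size alone gave -0.17 for ATF4, -0.11 for ASNS and -0.21 for SESN2, and DDIT3 was 0.19 with limma-voom, 0.0842 with the block and 0.76 without both libraries. With filtered smoke ATF4 was -0.28 with library size alone and DDIT3 0.33 without both libraries.

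Leaving out single libraries moved some members across 0: in A549 cells TRIB3 from -0.17 to 0.17 with complete smoke, and in complete against filtered smoke ATF3 from -0.20 to 0.56, PPP1R15A from -0.20 to 0.21, ASNS from -0.13 to 0.33, SESN2 from -0.0545 to 0.78 and DDIT4 from -0.0838 to 0.10. In BEAS-2B cells the range was -0.66 to 0.48 for SESN2 with complete smoke, and in complete against filtered smoke -0.29 to 0.20 for ATF4, -0.26 to 0.0634 for DDIT3, -0.51 to 0.0210 for PPP1R15A, -0.45 to 0.00488 for TRIB3, -0.94 to 0.28 for CHAC1, -0.57 to 0.25 for ASNS, -0.31 to 0.15 for DDIT4 and -0.53 to 0.0724 for JDP2. In the line difference it was -0.36 to 0.62 for DDIT3 and -0.48 to 0.72 for SESN2 with complete smoke, and -0.48 to 0.23 for ATF3, -0.13 to 0.70 for ATF4 and -0.69 to 0.33 for DDIT3 with filtered smoke.

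The background of passing genes depended on the setting too. In A549 cells with complete smoke 4951 genes became 8321 with the block, 7551 with offsets and block, 2574 with all 18 libraries in one fit, 1887 at 2-fold and 1422 to 6805 without single libraries (lowest without complete sample 2; also 2003 without complete sample 1 and 2081, 1861 and 2278 without control samples 1, 2 and 3). With filtered smoke 7112 became 3215 at 2-fold and 4006 to 9015 without single libraries (lowest without filtered sample 2; also 4249 without filtered sample 1 and 4661 without control sample 2). In BEAS-2B cells single libraries moved 6704 to between 2916 and 9026 (2991 and 2916 without control samples 2 and 3, 3600 and 3757 without complete samples 1 and 2) and 7947 to between 3652 and 9276 (3799 and 3652 without control samples 2 and 3, 4735 and 4513 without filtered samples 1 and 2), and leaving out control 1 and complete 3 together gave 10616 with complete smoke. The line difference of 308 genes with complete smoke (1.74% of 17703 tested) ranged from 87 to 797 without single libraries and was 3541 with the block, 4398 with offsets and block, 1571 with library size alone (45 higher and 1526 lower), 797 with no filter, 900 with the DESeq2 Wald test, 803 with the offsets and 3774 without both libraries. That of 146 with filtered smoke ranged from 47 to 182 and was 2742, 3483, 822 (28 higher and 794 lower), 450, 645, 510 and 905 in the same order.

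ASNS had 6 to 40 counts per library. In each line's simulated data 100 genes changed 2-fold and 100 changed 4-fold, of 15244 (A549) and 16356 (BEAS-2B). The test recovered 80% of 2-fold and 100% of 4-fold changes for A549, and 14% and 97% for BEAS-2B cells. In the measured data 4951 and 6704 genes passed with complete smoke, and the adjusted p depends on how many genes change. The simulated shares therefore do not give the power of the measured comparisons, and none was computed for ASNS.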
